A study of Mus musculus with 16 samples.

Results

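Pde7b, Atp10d, Prrg4, Csf2rb, Rab4a, Map2k3 and Madd are 7 liver genes whose answer to the drug pemafibrate differed between mice that had received an adenovirus carrying FAT10 and mice that had received a control adenovirus. They were picked by name for that difference, out of 55416 genes counted and 14770 with enough counts to be tested. All 7 passed the filter on low counts, and all 7 were among the 23 genes (0.156% of those tested) whose difference in response reached an adjusted p under 0.05. In 3 of the 7 that difference was positive, as in 4 of all genes tested (0.0271%), and in 4 it was negative, as in 19 (0.129%). The difference in response is therefore what chose them, and it is given here as a description with no test. Of the 7, Csf2rb and Rab4a lay nearest inside that threshold, both at an adjusted p of 0.0492 by edgeR's quasi-likelihood test, and the nearest genes outside it were Ccar1 and Rbpms, both at 0.0504. For 5 of the 7 the choice did not hold in every fit that left out 1 library. In 16 edgeR fits that each left out 1 library the threshold took 11 to 36 genes, with Pde7b and Atp10d in all 16 fits, Prrg4 and Map2k3 in 8, Madd in 4, Csf2rb in 3 and Rab4a in 2. With the replicate number as a block 3 of the 7 were under it, and DESeq2's Wald test took 115 genes with all 7 among them.

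The 16 livers were from C57BL/6J mice, with 4 groups of 4. Each mouse was injected in the tail vein, when 8 weeks old, with Ad-FAT10 or with Ad-CTRL, so the controls carried an adenovirus too and no uninfected mice are among the groups. After 4 days the mice were gavaged with pemafibrate (Pema) at 1 mpk, or with its vehicle CMC, 18 h and 5 h before the liver was taken, and were fasted for 5 h. The groups are Ad-FAT10 Pema, Ad-FAT10 CMC, Ad-CTRL Pema and Ad-CTRL CMC. The question the design puts is how raised FAT10 changes what the drug does to liver mRNA. An adenovirus given by this route reaches other liver cells besides hepatocytes. The labels do not give the promoter of the insert, so the cells that made FAT10 are not known. Ad-CTRL mice share the vector, but effects of FAT10, of its dose and of any unequal response to the vector cannot be told apart.

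Ubd encodes FAT10, a small relative of ubiquitin that is attached to other proteins and sends them to the proteasome, and that inflammatory cytokines raise. Pemafibrate is a selective agonist of PPARα, the nuclear receptor that switches on fatty acid oxidation and ketone production in fasted hepatocytes. PPARα binds DNA with RXR at direct repeats of the half-site AGGTCA, and it also lowers many inflammatory transcripts without binding them in that way. None of the 7 genes is an enzyme of fatty acid oxidation. Csf2rb encodes the beta chain shared by the receptors for GM-CSF, IL-3 and IL-5, Prrg4 a membrane protein with a vitamin K dependent Gla domain, and Atp10d a P4-ATPase that flips lipids across membranes. Pde7b encodes a phosphodiesterase that breaks down cAMP, Map2k3 a kinase that phosphorylates p38 MAP kinases, Rab4a a small GTPase of endosomal recycling, and Madd a DENN-domain exchange factor for RAB3 and RAB27.

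Library totals ran from 18663498 to 28898229 counts, and levels are CPM, which are counts brought to a common library size, scaled by the trimmed mean of M-values (TMM), with no correction for transcript length. They compare livers for 1 gene, and not genes with one another. Ubd ran from 391 to 546 CPM in Ad-FAT10 Pema and from 110 to 339 CPM in Ad-FAT10 CMC livers. It ran from 14.2 to 47.8 CPM in Ad-CTRL Pema and from 8.64 to 15.2 CPM in Ad-CTRL CMC livers, so every Ad-FAT10 liver lay above every Ad-CTRL liver. Under pemafibrate Ubd was itself higher, by 0.96 ± 0.33 (log2, adjusted p 0.0413, edgeR) in Ad-FAT10 and 1.30 ± 0.36 (0.00945) in Ad-CTRL livers. The Ad-FAT10 Pema and CMC livers thus differed in Ubd as well as in drug, and the part of that in the interactions was not tested. All 22 PPARα targets on a short list were higher under pemafibrate averaged over both adenoviruses, against 20.2% of all genes tested. Over all genes tested edgeR called 25.4% for pemafibrate in Ad-FAT10, 30.6% for pemafibrate in Ad-CTRL, 41.7% for Ad-FAT10 under Pema and 42.6% for Ad-FAT10 under CMC. All 20 hepatocyte markers on a list were expressed enough to be tested, and 12 of them were lower under pemafibrate and 14 lower with Ad-FAT10 (backgrounds 19.8% and 28.3%), with 2 higher with Ad-FAT10. In these bulk livers fewer cells of a type and less RNA per cell cannot be told apart.

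All 7 genes moved with an agonist of a DNA-binding receptor in Ad-CTRL livers. Upstream sequences are shown for the 4 whose upstream window was found in the RefSeq set used. Of these, Pde7b and Prrg4 moved upward and Map2k3 and Madd downward. The sequences are the 250 bases before the annotated start, from RefSeq on GRCm38.p6, read 5′ to 3′ on the strand of the gene. That build is not the GRCm39 that the submitters' processing notes name, so the coordinates belong to GRCm38.p6. Capitals mark the half-site AGGTCA, searched on both strands. The Pde7b window is chr10:20548329-20548578 (minus strand), that of Prrg4 is chr2:104849851-104850100 (minus strand), that of Map2k3 is chr11:60931804-60932053 (plus strand), and the Madd window shown is chr2:91179322-91179571 (minus strand).
Pde7b: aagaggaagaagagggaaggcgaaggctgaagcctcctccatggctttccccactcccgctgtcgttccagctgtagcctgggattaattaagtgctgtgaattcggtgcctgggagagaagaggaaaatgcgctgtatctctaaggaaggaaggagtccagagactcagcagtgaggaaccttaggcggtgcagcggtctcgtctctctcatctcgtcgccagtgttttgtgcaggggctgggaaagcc
Prrg4: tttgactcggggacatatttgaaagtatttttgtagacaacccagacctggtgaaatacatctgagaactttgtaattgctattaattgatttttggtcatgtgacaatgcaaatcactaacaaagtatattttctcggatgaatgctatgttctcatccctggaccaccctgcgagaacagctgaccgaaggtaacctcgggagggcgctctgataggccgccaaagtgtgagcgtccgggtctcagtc
Map2k3: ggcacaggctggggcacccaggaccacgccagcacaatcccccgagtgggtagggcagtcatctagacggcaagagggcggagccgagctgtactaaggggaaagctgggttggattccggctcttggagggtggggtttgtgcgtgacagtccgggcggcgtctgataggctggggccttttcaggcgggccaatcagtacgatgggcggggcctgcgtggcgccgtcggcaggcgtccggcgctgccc
Madd: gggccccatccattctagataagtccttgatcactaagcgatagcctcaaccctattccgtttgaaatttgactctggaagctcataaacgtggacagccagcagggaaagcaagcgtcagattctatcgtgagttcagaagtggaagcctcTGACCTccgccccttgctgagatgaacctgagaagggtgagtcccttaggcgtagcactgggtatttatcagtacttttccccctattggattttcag
The only half-site in these windows was in Madd, as TGACCT on the strand shown, 98 to 93 bases before the start. A window upstream of another Madd start, chr2:91183048-91183297, held none. Of all 32851 windows of this length 4607 (14%) held a half-site, and 11 (0.0335%) held the direct repeat AGGTCANAGGTCA, which none of the Pde7b, Prrg4, Map2k3 and Madd windows did. A match or its absence in so short a window is a description and tells nothing of binding by PPARα. Atp10d, Csf2rb and Rab4a had no matched upstream window, so none is shown.

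In all 7 genes the response to pemafibrate was smaller in Ad-FAT10 than in Ad-CTRL livers. Among all 23 genes chosen by the same threshold it was smaller in 23, while among the 14770 tested genes it was smaller in 8442 (57.2%), and among the 5907 genes called for pemafibrate on average it was smaller in 3727 (63.1%). Csf2rb, Prrg4, Atp10d and Pde7b were higher under the drug in Ad-CTRL livers and Map2k3, Rab4a and Madd were lower. The Ad-FAT10 response, as a percent of the Ad-CTRL response on the log2 scale, was 57.1% for Atp10d, 56.8% for Prrg4, 43.0% for Rab4a, 40.1% for Csf2rb, 33.9% for Map2k3 and 25.4% for Madd. Pde7b stood at -4.12%, with a standard error in the response larger than the response. These percentages restate the difference that chose the genes. The CPM of the livers did not overlap between Pema and CMC in 5 of the 7 genes with Ad-FAT10 (25.4% of all genes tested) and in all 7 with Ad-CTRL (30.6%). Between Ad-FAT10 and Ad-CTRL they did not overlap in 4 of the 7 under Pema (36.9% of all genes) and in 6 of the 7 under CMC (38.2%). Since the choice of the genes used these contrasts, nothing is read from those counts.

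**Figure D1:**
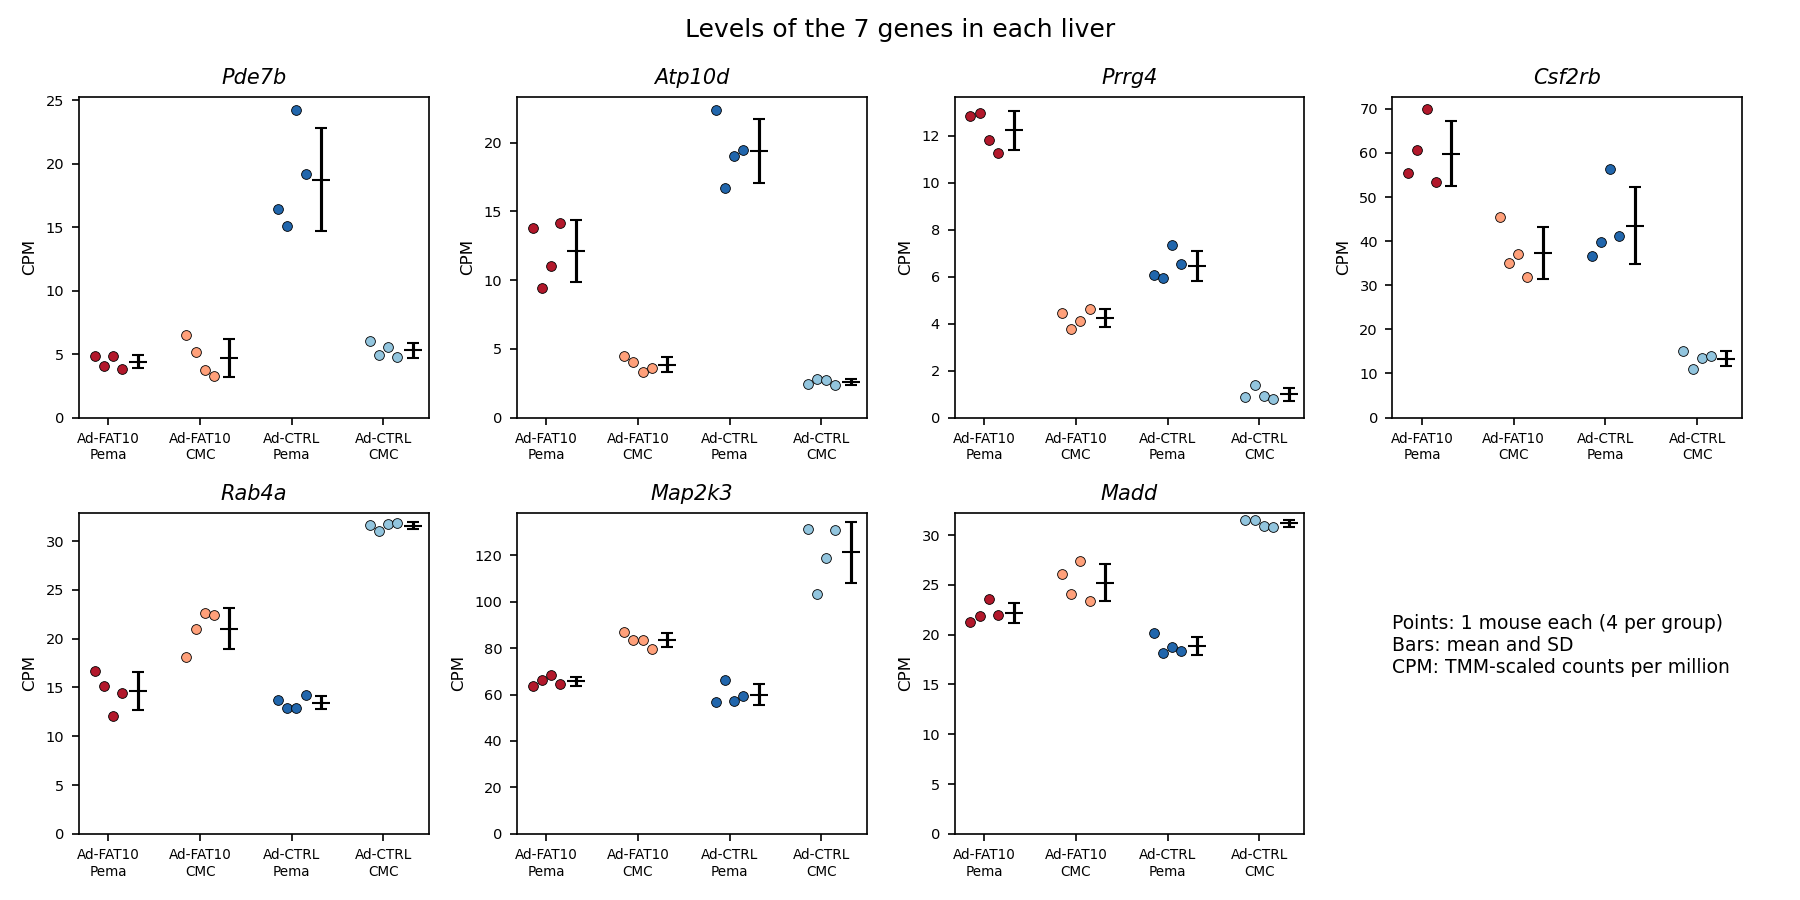
CPM of each of the 7 genes in each of the 16 livers, 4 per group, on linear axes from 0, with the mean and SD beside the points. In Pde7b the Ad-CTRL Pema livers stand alone at 15.1 to 24.2 CPM, and in Rab4a, Map2k3 and Madd the Ad-CTRL CMC livers stand alone at the top.

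Pde7b (ENSMUSG00000019990) had no detectable drug response with Ad-FAT10. Its level was 4.86, 4.08, 4.87 and 3.84 CPM in Ad-FAT10 Pema livers, against 6.51, 5.20, 3.76 and 3.26 CPM in Ad-FAT10 CMC livers. With Ad-CTRL the values were 16.4, 15.1, 24.2 and 19.2 CPM with Pema, against 6.04, 4.94, 5.55 and 4.73 CPM with CMC. Every Ad-CTRL Pema liver lay above the other 12, and those 12 overlapped one another. The log2 response was -0.07 ± 0.19 (SE) in Ad-FAT10 and 1.82 ± 0.19 in Ad-CTRL livers, a 3.53-fold higher level under Pema in the Ad-CTRL mice. Their difference, the interaction, was -1.89 ± 0.27. Seen from the adenovirus side, Ad-FAT10 left Pde7b 4.25-fold lower under Pema (log2 -2.09 ± 0.19) and close to level under CMC (-0.19 ± 0.20). The difference under Pema was thus larger than the interaction, with the small CMC difference on the same side. In the Pema livers counts ran from 107 to 164 in Ad-FAT10 and from 282 to 486 in Ad-CTRL.

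Atp10d (ENSMUSG00000046808) was higher under the drug with both adenoviruses, and its adenovirus difference turned over between treatments. It had 13.8, 9.46, 11.0 and 14.2 CPM in Ad-FAT10 Pema livers, against 4.49, 4.01, 3.29 and 3.61 CPM in Ad-FAT10 CMC livers. Ad-CTRL livers had 22.4, 16.7, 19.1 and 19.4 CPM with Pema, against 2.46, 2.77, 2.73 and 2.37 CPM with CMC. No pair of the 4 groups overlapped, and the order from the top was Ad-CTRL Pema, Ad-FAT10 Pema, Ad-FAT10 CMC and Ad-CTRL CMC. On the log2 scale the response was 1.66 ± 0.14 in Ad-FAT10 and 2.90 ± 0.15 in Ad-CTRL livers, an interaction of -1.25 ± 0.21. With Ad-FAT10 the gene was lower under Pema (log2 -0.68 ± 0.13) but higher under CMC (0.57 ± 0.16), so both treatments contributed to the interaction. C57BL/6J mice are known to carry a premature stop codon in Atp10d, and these values are of its mRNA.

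Prrg4 (ENSMUSG00000027171) was higher with Ad-FAT10 and higher with the drug, and was highest where both were given. It had 12.9, 13.0, 11.8 and 11.3 CPM in Ad-FAT10 Pema livers, against 4.45, 3.79, 4.12 and 4.60 CPM in Ad-FAT10 CMC livers. With Ad-CTRL the same gene had 6.07, 5.93, 7.33 and 6.52 CPM with Pema, against 0.880, 1.39, 0.924 and 0.772 CPM with CMC. The 4 groups did not overlap. Its response on the log2 scale was 1.53 ± 0.13 in Ad-FAT10 and 2.69 ± 0.16 in Ad-CTRL livers, an interaction of -1.16 ± 0.21. The Ad-FAT10 difference was 0.92 ± 0.13 under Pema and 2.08 ± 0.16 under CMC, so the gap was smaller under Pema but still there. Ad-CTRL CMC libraries held only 15 to 30 counts of Prrg4, and the interaction was -1.38 without replicate 2 of that group and -0.58 on the log2(CPM + 1) scale, which compresses low levels.

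Csf2rb (ENSMUSG00000071713) followed the order of Prrg4 at higher counts. It had 55.5, 60.7, 69.8 and 53.4 CPM in Ad-FAT10 Pema livers, against 45.4, 35.0, 37.0 and 31.8 CPM in Ad-FAT10 CMC livers. The Ad-CTRL values were 36.7, 39.9, 56.3 and 41.2 CPM with Pema, against 15.1, 10.9, 13.4 and 14.0 CPM with CMC. The Ad-CTRL CMC livers were the lowest of all, the Ad-FAT10 CMC and Ad-CTRL Pema livers overlapped, and 1 Ad-CTRL Pema liver reached into the Ad-FAT10 Pema range. Its log2 response was 0.68 ± 0.14 in Ad-FAT10 and 1.71 ± 0.15 in Ad-CTRL livers, an interaction of -1.02 ± 0.20. The Ad-FAT10 difference was 0.46 ± 0.14 under Pema and 1.48 ± 0.15 under CMC.

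Map2k3 (ENSMUSG00000018932) was lower under the drug with both adenoviruses. It had 63.8, 66.1, 68.2 and 64.7 CPM in Ad-FAT10 Pema livers, against 87.0, 83.7, 83.6 and 79.5 CPM in Ad-FAT10 CMC livers. Among Ad-CTRL livers the values were 56.9, 66.4, 57.0 and 59.3 CPM with Pema, against 132, 103, 119 and 131 CPM with CMC. The Pema livers of both adenoviruses met near the same level, and the CMC livers stood apart, with every Ad-CTRL CMC liver above every Ad-FAT10 CMC liver. The fitted log2 response was -0.34 ± 0.08 in Ad-FAT10 and -1.02 ± 0.08 in Ad-CTRL livers, an interaction of 0.67 ± 0.12. The Ad-FAT10 difference was 0.13 ± 0.08 under Pema and -0.54 ± 0.08 under CMC.

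Rab4a (ENSMUSG00000019478) had the same shape. It had 16.7, 15.2, 12.0 and 14.5 CPM in Ad-FAT10 Pema livers, against 18.1, 21.0, 22.6 and 22.4 CPM in Ad-FAT10 CMC livers. Ad-CTRL livers held 13.7, 12.9, 12.9 and 14.2 CPM with Pema, against 31.6, 31.0, 31.7 and 31.8 CPM with CMC. The Ad-CTRL CMC livers had a coefficient of variation of 1.12% and lay above all others, and the Pema livers of both adenoviruses overlapped. The fitted response was -0.53 ± 0.10 in Ad-FAT10 and -1.23 ± 0.10 in Ad-CTRL livers, an interaction of 0.70 ± 0.14. The Ad-FAT10 difference was 0.12 ± 0.10 under Pema and -0.58 ± 0.10 under CMC.

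Madd (ENSMUSG00000040687) had the smallest interaction of the 7. It had 21.3, 21.9, 23.6 and 22.0 CPM in Ad-FAT10 Pema livers, against 26.0, 24.1, 27.4 and 23.4 CPM in Ad-FAT10 CMC livers. With Ad-CTRL there were 20.2, 18.2, 18.8 and 18.3 CPM with Pema, against 31.5, 31.5, 30.9 and 30.8 CPM with CMC. With Ad-FAT10 the Pema and CMC ranges overlapped, since the highest Pema liver lay above the lowest CMC liver, while the Ad-CTRL groups were far apart. The log2 response of Madd was -0.18 ± 0.07 in Ad-FAT10 and -0.72 ± 0.07 in Ad-CTRL livers, an interaction of 0.54 ± 0.10. The Ad-FAT10 difference was 0.23 ± 0.07 under Pema and -0.31 ± 0.07 under CMC, so Ad-FAT10 livers lay between the Ad-CTRL groups under both treatments.

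**Figure D2:**
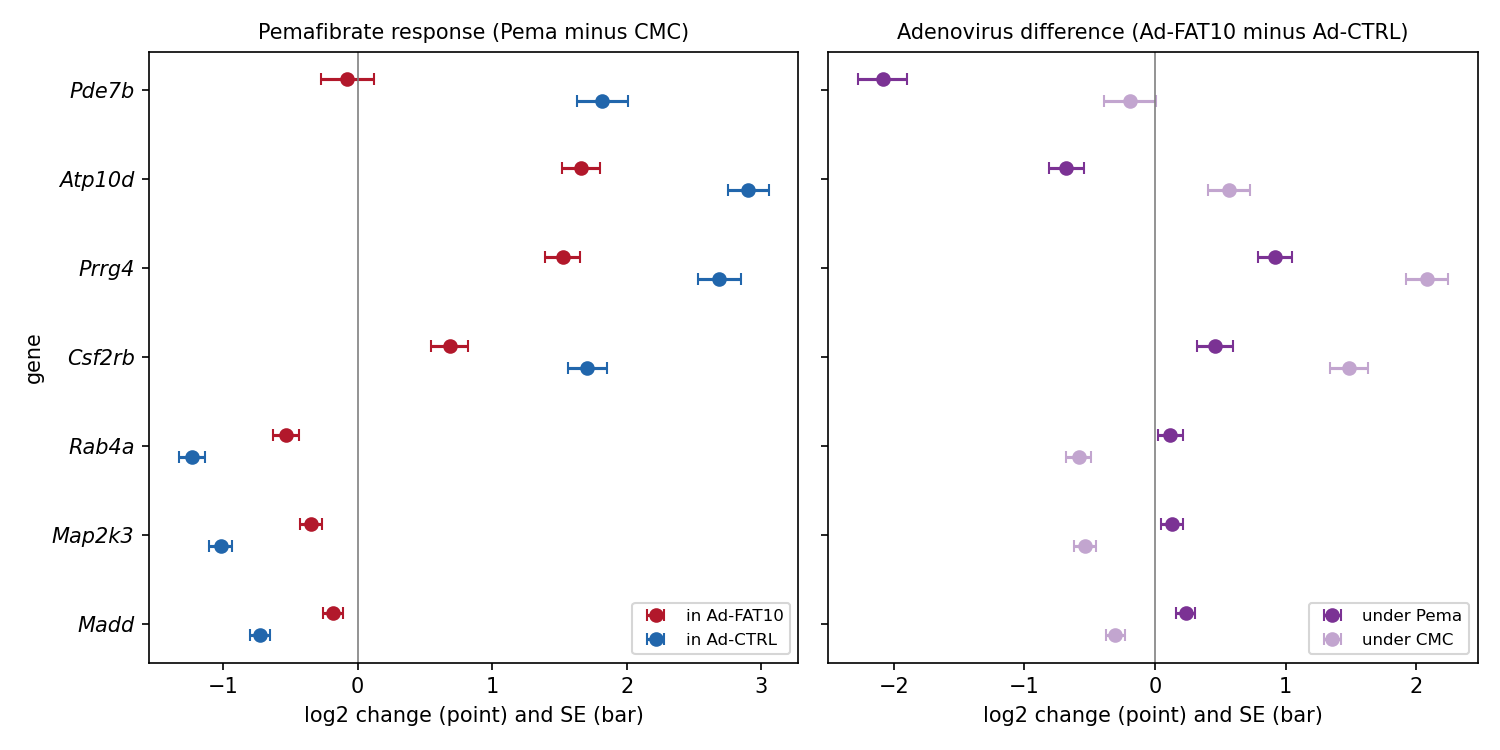
Fitted log2 changes with standard errors for the 7 genes, as the pemafibrate response in Ad-FAT10 and in Ad-CTRL livers and the Ad-FAT10 difference under Pema and under CMC. For every gene the Ad-FAT10 response lies nearer to 0 than the Ad-CTRL response, from -0.07 against 1.82 in Pde7b to -0.18 against -0.72 in Madd.

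The 7 genes reached a smaller drug response in different ways. An interaction can be read as the Ad-FAT10 difference under Pema minus that under CMC, and the CMC livers supplied -10.1% of it in Pde7b, 45.5% in Atp10d, 56.7% in Madd, 80.2% in Map2k3, 83.2% in Rab4a, 145.0% in Csf2rb and 178.9% in Prrg4. In all of these but Pde7b, the Ad-FAT10 CMC livers were displaced from the Ad-CTRL CMC livers in the direction in which the drug moved the gene. In Pde7b the vehicle livers overlapped and the Pema livers differed. In Prrg4 and Csf2rb the Ad-FAT10 difference kept its sign under both treatments, and so the percentage passes the whole.

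The mean of the 2 pemafibrate responses is, as a contrast, orthogonal to the interaction in this balanced design, so the choice did not use it directly. The 2 estimates can still be correlated where the groups differ in precision, as with the low counts of Prrg4 in Ad-CTRL CMC livers. Both contrasts also share the fitted spread of each gene, and a choice by small p favours a low spread. The adjusted p-values below may therefore be too small. A gene that responds unequally also has to respond somewhere, so a call here adds the size and not the fact of a response. Nothing is read from the number of calls. All 7 genes were called by edgeR's quasi-likelihood test with Benjamini-Hochberg adjustment over 14770 genes, 4 higher and 3 lower, against 40% of all genes tested. The average log2 change was 2.28 ± 0.10 for Atp10d (adjusted p 8.25e-12), 2.11 ± 0.10 for Prrg4 (2.31e-11), 1.20 ± 0.10 for Csf2rb (2.96e-08) and 0.87 ± 0.14 for Pde7b (4.68e-05) in that edgeR fit. It was -0.88 ± 0.07 for Rab4a (adjusted p 1.17e-08), -0.68 ± 0.06 for Map2k3 (4.82e-08) and -0.45 ± 0.05 for Madd (1.35e-06) in the same edgeR fit. Atp10d thus rose 4.86-fold and Prrg4 4.31-fold on average, while Madd fell to 0.730 of its vehicle level. The average of Pde7b came from the Ad-CTRL livers (log2 response 1.82, against -0.07 in Ad-FAT10). That response also made its interaction, so the Pde7b call restates the choice.

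The mean of the 2 Ad-FAT10 differences is orthogonal to the interaction as well, with the same limits from unequal precision and the shared spread. By it 5 of the 7 genes were called, against 56.9% of all genes tested. In the edgeR fit Prrg4 was higher with Ad-FAT10 by 1.50 ± 0.10 (log2, adjusted p 6.45e-09) and Csf2rb by 0.97 ± 0.10 (3.93e-07). Pde7b was lower at -1.14 ± 0.14 (adjusted p 2.04e-06, edgeR), Rab4a at -0.23 ± 0.07 (0.00762) and Map2k3 at -0.20 ± 0.06 (0.00716). The TMM factors ran from 1.06 to 1.19 in Ad-FAT10 and from 0.831 to 0.929 in Ad-CTRL libraries. Small Ad-FAT10 differences, such as those of Rab4a and Map2k3, therefore depend on that scaling in size and sign. No fit on library totals alone was run. The Map2k3 call depended on the filter, since with no filter on low counts its value was -0.18 at an adjusted p of 0.0625 by edgeR. Atp10d (-0.06 ± 0.10, adjusted p 0.669, edgeR) and Madd (-0.04 ± 0.05, adjusted p 0.569, edgeR) were not called. In Atp10d, Madd, Rab4a and Map2k3 the difference had opposite signs under Pema and CMC, so their averages join unlike values. That of Pde7b came mostly from the Pema livers (-2.09, against -0.19 under CMC), the side on which its interaction lay. The share of 5 in 7 is close to the background.

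Across the 16 libraries Pde7b was less correlated in size with each of the other 6 genes than any of those were with each other. The Pearson correlation of log2 CPM was 0.955 between Prrg4 and Csf2rb, 0.935 between Rab4a and Map2k3, 0.931 between Map2k3 and Madd and 0.904 between Rab4a and Madd. Atp10d ran opposite to Rab4a, Map2k3 and Madd, at -0.924, -0.922 and -0.924. The weakest values among those 6 were 0.740 between Atp10d and Csf2rb and -0.774 between Csf2rb and Madd. Pde7b had 0.142 with Prrg4, 0.178 with Csf2rb, -0.466 with Map2k3, -0.488 with Rab4a, -0.613 with Madd and 0.638 with Atp10d, so its largest values lay close to the weakest of the others. The points share the 4 groups and the scaling of each library, so these values describe group patterns and carry no p.

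By the same measure over 16 libraries, the most similar patterns were sought among tested genes outside the 7 that carry a standard symbol. For Pde7b the pattern most like it was in Slc36a4 (0.949), an amino acid transporter, and Zbtb43 (0.948). For Atp10d it was in Gpatch2l (0.980) and Gk (0.976), which encodes glycerol kinase. For Prrg4 it was in Cox6b2 (0.975) and Ly6d (0.969), and for Csf2rb in Tsr1 (0.972) and S1pr2 (0.969), a receptor for sphingosine 1-phosphate. For Rab4a it was in Col5a3 (0.963) and Bcat2 (0.955), the mitochondrial aminotransferase of branched-chain amino acids. Map2k3 was most like F11 (0.948), a coagulation factor made by hepatocytes, and Ttc23 (0.941). Outside the 7, Madd was most like Tpst1 (0.909) and Srgap3 (0.907), the lowest such values, below its 0.931 with Map2k3.

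Csf2rb is expressed by blood cells of the myeloid line, so markers of those cells are given beside it. The summed level of neutrophil markers ran from 19.9 to 31.5 CPM in Ad-FAT10 Pema, from 45.0 to 165.5 CPM in Ad-FAT10 CMC, from 8.23 to 12.6 CPM in Ad-CTRL Pema and from 11.4 to 21.1 CPM in Ad-CTRL CMC livers. Of 14 such markers 10 were tested, and among the others Mpo was at 0 in 7 libraries, Ly6g in 6, Camp in 2 and Elane in 1. Of the 10, 6 reached the minimum level of the filter in at least 4 Ad-CTRL libraries. The other 4 passed through Ad-FAT10 livers, Retnlg and Mmp8 through both treatments and Ngp and Ltf only with the CMC livers, and Ngp was at 0 in 2 libraries. With Ad-FAT10 under CMC all 10 were higher (background 22.5%), and under pemafibrate in Ad-FAT10 livers all 10 were lower (background 12.5%), where the log2 response of Csf2rb was 0.68. For some of those 4 markers the filter favours these directions, so the counts are given with nothing read from them. In Ad-CTRL livers edgeR called 0 of the 10 for pemafibrate and DESeq2 called 0. Of the 10, 1 had an unadjusted p under 0.05 there (39.8% of all genes tested), and low levels in Ad-CTRL livers limit what could be called. In the interaction both tools called 0 of the 10. By edgeR 3 had an unadjusted p under 0.05, all negative, against 10.8% of all genes tested. A drug response of these markers that differs between the adenoviruses was therefore not called.

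Levels of single neutrophil genes lie behind these counts. S100a8, a subunit of calprotectin, averaged 4.39 ± 1.07 CPM in Ad-FAT10 Pema, 17.5 ± 12.2 CPM in Ad-FAT10 CMC, 1.39 ± 0.454 CPM in Ad-CTRL Pema and 1.97 ± 0.943 CPM in Ad-CTRL CMC livers (SD, n = 4 each). Csf3r, the G-CSF receptor, averaged 8.69 ± 0.949 CPM in Ad-FAT10 Pema and 15.8 ± 1.60 CPM in Ad-FAT10 CMC livers, a log2 response of -0.86 ± 0.15 (adjusted p 0.000289, edgeR). The interaction was -1.52 ± 0.64 for S100a8 and -0.59 ± 0.22 for Csf3r, and neither was called (adjusted p 0.403 and 0.353, edgeR). The response of Csf2rb in Ad-FAT10 livers, 0.68 ± 0.14, is part of the difference that chose it, so it is not compared with that of Csf3r.

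Markers of macrophages and monocytes summed to 350 to 582 CPM in Ad-FAT10 Pema, 463 to 596 CPM in Ad-FAT10 CMC, 211 to 328 CPM in Ad-CTRL Pema and 231 to 300.1 CPM in Ad-CTRL CMC livers. All 12 were tested, and 11 were higher and 1 lower with Ad-FAT10 on average, the side on which Csf2rb also moved. For pemafibrate on average edgeR called 1 of the 12 higher and 0 lower, and DESeq2 called 0. Of the 12, 4 had an unadjusted p under 0.05 (47.1% of all genes tested). Csf1r, which encodes the receptor for macrophage colony-stimulating factor, was higher with Ad-FAT10 by 0.83 ± 0.13 (log2, adjusted p 3.32e-05, edgeR) and stood at -0.31 ± 0.13 for pemafibrate (adjusted p 0.0684, edgeR). The sums overlapped between Pema and CMC livers with each adenovirus. The part of myeloid cells in the Ad-FAT10 difference and in the drug response of Csf2rb was not tested. Of the markers of other cells that edgeR tested for Ad-FAT10 on average, 14 of 15 of T and NK cells were higher, against 28.5% of all genes tested, and 5 of 8 of B and plasma cells and 9 of 12 of endothelium were lower, against 28.3%. In cholangiocytes 2 of 6 (33.3%) were higher, which is near the background. Markers went both ways in Kupffer cells (4 higher and 7 lower of 12), stellate cells and fibroblasts (2 higher and 6 lower of 12) and dendritic cells, basophils, mast cells and eosinophils (4 higher and 2 lower of 8). Ncr1 in the T and NK list and Flt3 in the dendritic list passed the filter only with the help of Ad-FAT10 livers. For Ncr1 and Flt3 the filter favours a higher level with Ad-FAT10, so nothing is read from their direction.

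**Figure D3:**
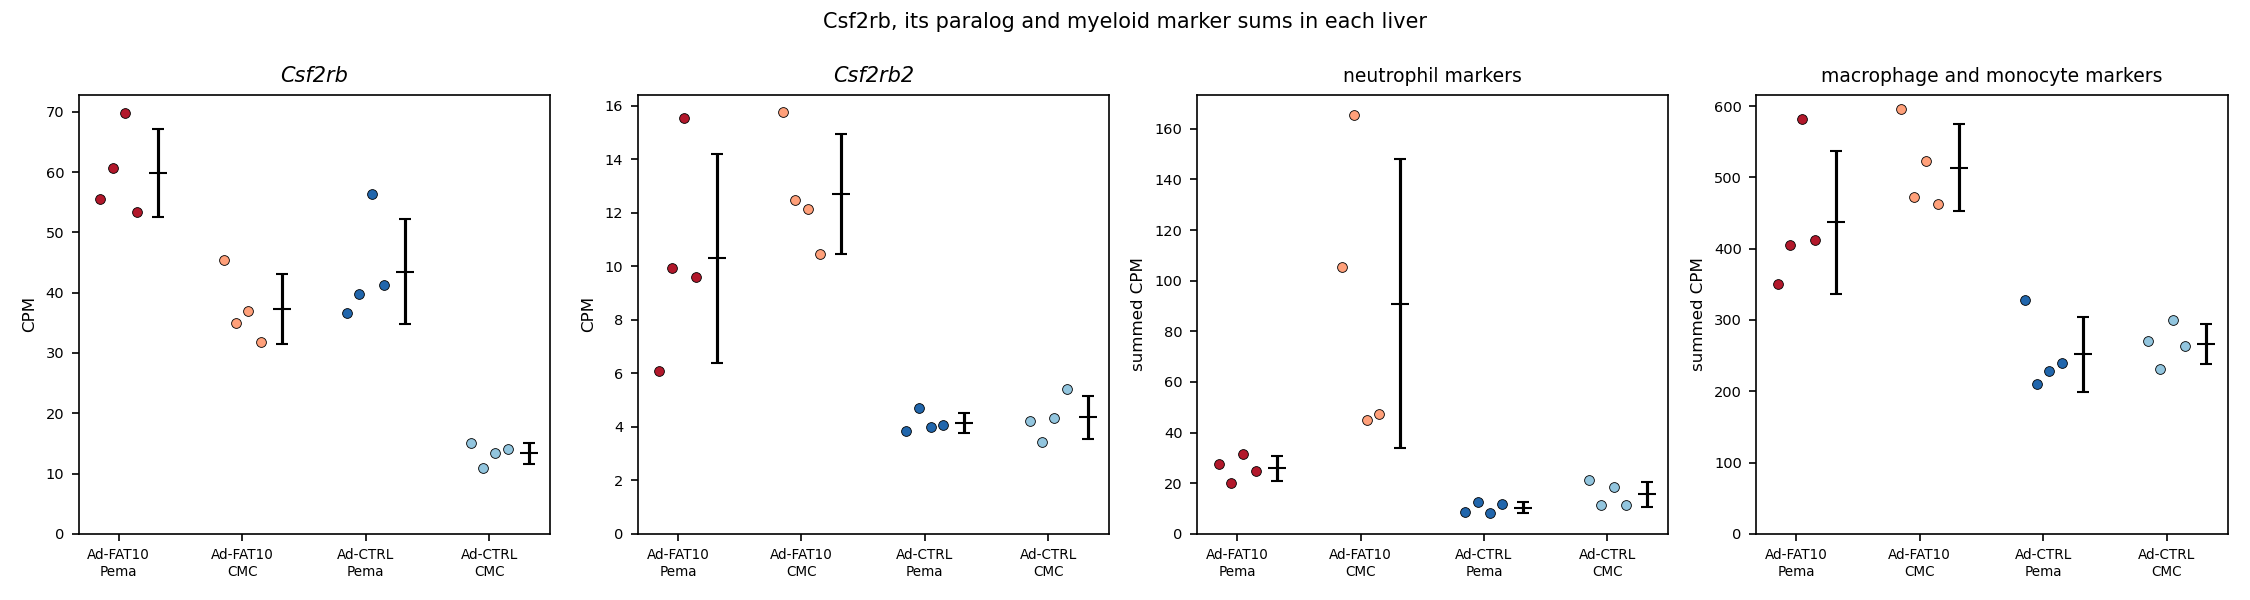
Csf2rb and its paralog Csf2rb2 in CPM, and the summed CPM of neutrophil and of macrophage and monocyte markers, in each of the 16 livers with the mean and SD of each group. Csf2rb is lowest in Ad-CTRL CMC livers (10.9 to 15.1 CPM), while Csf2rb2 and both sums are higher on average with Ad-FAT10.

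Csf2rb2, the rodent paralog whose product serves the IL-3 receptor, had 6.10, 9.92, 15.5 and 9.59 CPM in Ad-FAT10 Pema livers, against 15.8, 12.5, 12.1 and 10.4 CPM in Ad-FAT10 CMC livers. Its Ad-CTRL levels were 3.84, 4.70, 3.99 and 4.05 CPM with Pema, against 4.22, 3.42, 4.34 and 5.40 CPM with CMC. It separated by adenovirus and overlapped between treatments. Csf2rb2 was higher with Ad-FAT10 by 1.43 ± 0.16 (log2, adjusted p 7.52e-07, edgeR), and its average pemafibrate change was -0.18 ± 0.16 (adjusted p 0.388, edgeR). Its interaction was -0.23 ± 0.31 (adjusted p 0.844, edgeR). Of 7218 windows of 100 bases in Csf2rb transcripts 334 (4.63%) also occurred in Csf2rb2, so a small part of the counts of either gene could belong to the other. None of the transcript windows of the other 6 genes occurred in another gene, and 62 bases (0.852%) of Csf2rb exons overlapped Mir7676-2 on the same strand in GENCODE M21.

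Of 15 tested relatives (partner receptor chains, ligands, JAK2, STAT5 and its feedback targets, and kinases and phosphatases of the pathway), 9 were higher and 2 lower with Ad-FAT10 on average (backgrounds 28.5% and 28.3%). Their median log2 change was 0.39, against -0.02 over all genes tested. Csf2ra, the GM-CSF receptor alpha chain that pairs with Csf2rb, was higher by 1.26 ± 0.11 (adjusted p 4.19e-08, edgeR). For pemafibrate 3 were higher and 3 lower, and that 40% share equals the 40% of all genes tested. Stat5b, which carries the signal to the nucleus, was lower (log2 -0.41 ± 0.06, adjusted p 1.21e-05, edgeR), and the phosphatase gene Ptpn6 was higher by 0.44 ± 0.07 (5.32e-05). In the interaction edgeR called 0 of the 15, DESeq2 called 0, and 1 had an unadjusted p under 0.05, against 10.8% of all genes tested.

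Around Prrg4, 10 relatives were tested, the other PRRG genes and genes of vitamin K dependent carboxylation. For pemafibrate 1 was higher and 1 lower (20% called, against 40% of all genes tested). The riser was Aifm2, whose product reduces vitamin K and coenzyme Q at membranes, with 1.09 ± 0.07 (log2, adjusted p 7.61e-10, edgeR), and the faller was Gas6, a Gla-domain ligand of TAM receptors, with -0.64 ± 0.12 (0.000441). With Ad-FAT10 1 was higher and 4 lower (50%, against 56.9% of all genes). Prrg2 was lower at -0.52 ± 0.07 (adjusted p 3.60e-06, edgeR) and Vkorc1l1, a vitamin K epoxide reductase, at -0.32 ± 0.05 (4.39e-05), on the other side from Prrg4. In the interaction edgeR and DESeq2 called 0 of the 10, and 0 had an unadjusted p under 0.05 (10.8% of all genes tested).

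Around Atp10d, 13 flippases and their CDC50 partners were tested. For pemafibrate 3 were higher and 5 lower (61.5% called, against 40% of all genes tested). Atp9a, an endosomal P4-ATPase, was higher by 1.09 ± 0.08 (log2, adjusted p 2.61e-09, edgeR), and Atp8b1, the canalicular flippase whose loss in humans causes familial cholestasis, was lower at -0.84 ± 0.09 (6.64e-07). With Ad-FAT10 6 were higher and 3 lower (69.2%, against 56.9%). Atp8b4 was higher by 1.94 ± 0.13 (adjusted p 6.45e-09, edgeR) and Atp10a, a member of the same subfamily as Atp10d, by 1.62 ± 0.20 (3.33e-06). In the interaction edgeR and DESeq2 called 0 of the 13, and 3 had an unadjusted p under 0.05 (10.8% of all genes tested). The human protein ATP10D moves glucosylceramide, so 18 genes that make, carry or break down that lipid were read too. In them 3 were higher and 3 lower for pemafibrate (33.3% called), and 9 higher and 3 lower with Ad-FAT10 (66.7%). Psap, the precursor of the saposins that aid lysosomal lipid breakdown, was higher under pemafibrate by 0.81 ± 0.09 (adjusted p 1.43e-06, edgeR) and Plekha8, a lipid transfer protein gene, by 0.60 ± 0.07 (3.47e-06). Sptlc2, a subunit of serine palmitoyltransferase, was higher with Ad-FAT10 by 0.72 ± 0.07 (adjusted p 1.11e-07, edgeR), and B4galt5, a lactosylceramide synthase, by 0.62 ± 0.08 (7.23e-06). In the interaction both tools called 0 of the 18, and 3 had an unadjusted p under 0.05 (10.8% of all genes tested).

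Around Pde7b, 12 other phosphodiesterases were tested. For pemafibrate 4 were higher and 1 lower (41.7% called, near the 40% of all genes tested), and with Ad-FAT10 2 were higher and 3 lower (41.7%, against 56.9%). Pde4d rose by 1.23 ± 0.16 (log2, adjusted p 8.39e-06, edgeR) and Pde4b, its relative in the cAMP-specific PDE4 family, fell at -0.97 ± 0.14 (2.09e-05). Pde1b, a calmodulin-dependent enzyme, was higher with Ad-FAT10 by 0.93 ± 0.13 (adjusted p 8.37e-06, edgeR) and Pde4c was lower at -0.66 ± 0.10 (1.69e-05). The Pde1b average joined 1.44 ± 0.18 under Pema and 0.42 ± 0.18 under CMC. Its interaction of 1.02 ± 0.26, opposite in sign to that of Pde7b, was not called (adjusted p 0.142, edgeR). Pde7a, the other gene of the PDE7 family, had an interaction of -0.09 ± 0.18 (adjusted p 0.904, edgeR). In the interaction edgeR called 0 of the 12 and DESeq2 called 1. Of the 12, 2 had an unadjusted p under 0.05 (10.8% of all genes tested), 1 positive and 1 negative. Of 23 genes that make or read cAMP, 2 were higher and 1 lower for pemafibrate (13% called) and 3 higher and 10 lower with Ad-FAT10 (56.5%, near the background). The adenylyl cyclase genes Adcy6 and Adcy9 moved apart under pemafibrate, at 0.65 ± 0.08 (adjusted p 3.57e-06, edgeR) and -0.69 ± 0.11 (4.24e-05). With Ad-FAT10 the glucagon receptor gene Gcgr was lower at -0.84 ± 0.07 (adjusted p 5.45e-08, edgeR) and Adcy7 was higher by 0.99 ± 0.12 (2.36e-06). In the interaction both tools called 0 of these 23, and 3 had an unadjusted p under 0.05 (10.8% of all genes tested).

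Around Map2k3, 26 genes of the p38 cascade were tested. For pemafibrate 5 were higher and 6 lower, and with Ad-FAT10 9 were higher and 6 lower. These shares of 42.3% and 57.7% called were near the 40% and 56.9% of all genes tested. Map2k6, the closest relative of Map2k3 and likewise a kinase that phosphorylates p38, had 0.656, 0.725, 0.801 and 0.585 CPM in Ad-FAT10 Pema livers, against 2.80, 3.71, 2.85 and 2.06 CPM in Ad-FAT10 CMC livers. The levels with Ad-CTRL were 0.985, 0.588, 0.698 and 0.969 CPM with Pema, against 5.34, 11.5, 6.70 and 9.16 CPM with CMC. As with Map2k3, the Pema livers overlapped and the Ad-CTRL CMC livers were the highest. The average pemafibrate change of Map2k6 was -2.68 ± 0.19 (log2, adjusted p 2.33e-09, edgeR), and its interaction of 1.29 ± 0.38 was not called (adjusted p 0.22, edgeR). With Ad-FAT10 Mapk12, a p38 isoform gene, was lower at -0.74 ± 0.11 (adjusted p 1.56e-05, edgeR) and Map3k20 was higher by 0.44 ± 0.07 (5.62e-05).

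Map3k5, which encodes ASK1, a stress-activated kinase upstream of Map2k3, was the 1 gene of these 26 called in the interaction. Of the 26, 9 had an unadjusted p under 0.05, against 10.8% of all genes tested, with 2 positive and 7 negative. Map3k5 had 48.4, 55.5, 49.2 and 55.0 CPM in Ad-FAT10 Pema livers, against 42.1, 39.7, 50.4 and 47.9 CPM in Ad-FAT10 CMC livers. Ad-CTRL mice had 69.4, 82.1, 86.6 and 72.7 CPM with Pema, against 38.7, 43.3, 39.6 and 41.9 CPM with CMC. The Ad-CTRL Pema livers stood above all others, as in Pde7b. The response of Map3k5 was 0.21 ± 0.09 in Ad-FAT10 (adjusted p 0.117, edgeR) and 0.93 ± 0.09 in Ad-CTRL livers (6.91e-07), and the interaction was -0.72 ± 0.13 (adjusted p 0.0326, edgeR). That call was lost in 11 of 16 fits that left out 1 library, with an adjusted p of up to 0.1, and DESeq2 called 2 of the 26 genes. The Ad-CTRL responses of Map2k3 and Map2k6, at -1.02 and -3.32, had the opposite sign to that of Map3k5.

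Around Rab4a, 25 genes of RAB4 and endosomal recycling were tested, of which 5 were higher and 5 lower for pemafibrate and 10 higher and 6 lower with Ad-FAT10. The shares called were 40% and 64%, against 40% and 56.9% of all genes tested. Rabgef1, an exchange factor of RAB5 on early endosomes, rose with pemafibrate by 0.80 ± 0.07 (log2, adjusted p 5.01e-08, edgeR) and Ehd4 by 0.82 ± 0.11 (7.70e-06), where Rab4a fell. With Ad-FAT10 the related membrane ATPase genes Ehd1 and Ehd3 moved apart, at 0.71 ± 0.08 (adjusted p 5.68e-07, edgeR) and -1.32 ± 0.14 (7.58e-07). In the interaction both tools called 0 of the 25, and 3 had an unadjusted p under 0.05 (10.8% of all genes tested).

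Around Madd, 23 genes of the RAB3 cycle, of other DENN-domain proteins and of TNF receptor signalling were tested, of which 3 were higher and 8 lower for pemafibrate and 9 higher and 7 lower with Ad-FAT10. In this list 47.8% and 69.6% were called, against 40% and 56.9% of all genes tested. Dennd4a, a DENN-domain gene, rose with pemafibrate by 0.68 ± 0.07 (log2, adjusted p 4.04e-07, edgeR), while Madd fell. Rab27a, a substrate of MADD, was higher with Ad-FAT10 by 1.13 ± 0.16 (adjusted p 1.01e-05, edgeR) and Rab3d by 0.57 ± 0.09 (5.82e-05). Dennd2b was the 1 gene of the 23 called in the interaction by edgeR, while DESeq2 called 1. Of the 23, 6 had an unadjusted p under 0.05, against 10.8% of all genes tested, with 2 positive and 4 negative.

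Dennd2b, an older name of which is St5, had 56.4, 56.1, 66.6 and 47.6 CPM in Ad-FAT10 Pema livers, against 30.4, 26.7, 32.9 and 28.4 CPM in Ad-FAT10 CMC livers. For Ad-CTRL the values were 63.7, 75.0, 79.7 and 61.9 CPM with Pema, against 21.6, 18.4, 17.0 and 18.0 CPM with CMC. The Pema livers were above the CMC livers with both adenoviruses, and as in Atp10d the mean Ad-FAT10 level was lower under Pema and higher under CMC than with Ad-CTRL. The response was 0.94 ± 0.11 in Ad-FAT10 (adjusted p 7.98e-06, edgeR) and 1.90 ± 0.12 in Ad-CTRL livers (1.14e-09), with an interaction of -0.97 ± 0.16 (adjusted p 0.0148, edgeR). The call was kept in all 21 alternative fits, with adjusted p from 0.000138 to 0.0492. Dennd2b moved against Madd, rising with the drug where Madd fell.

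**Figure D4:**
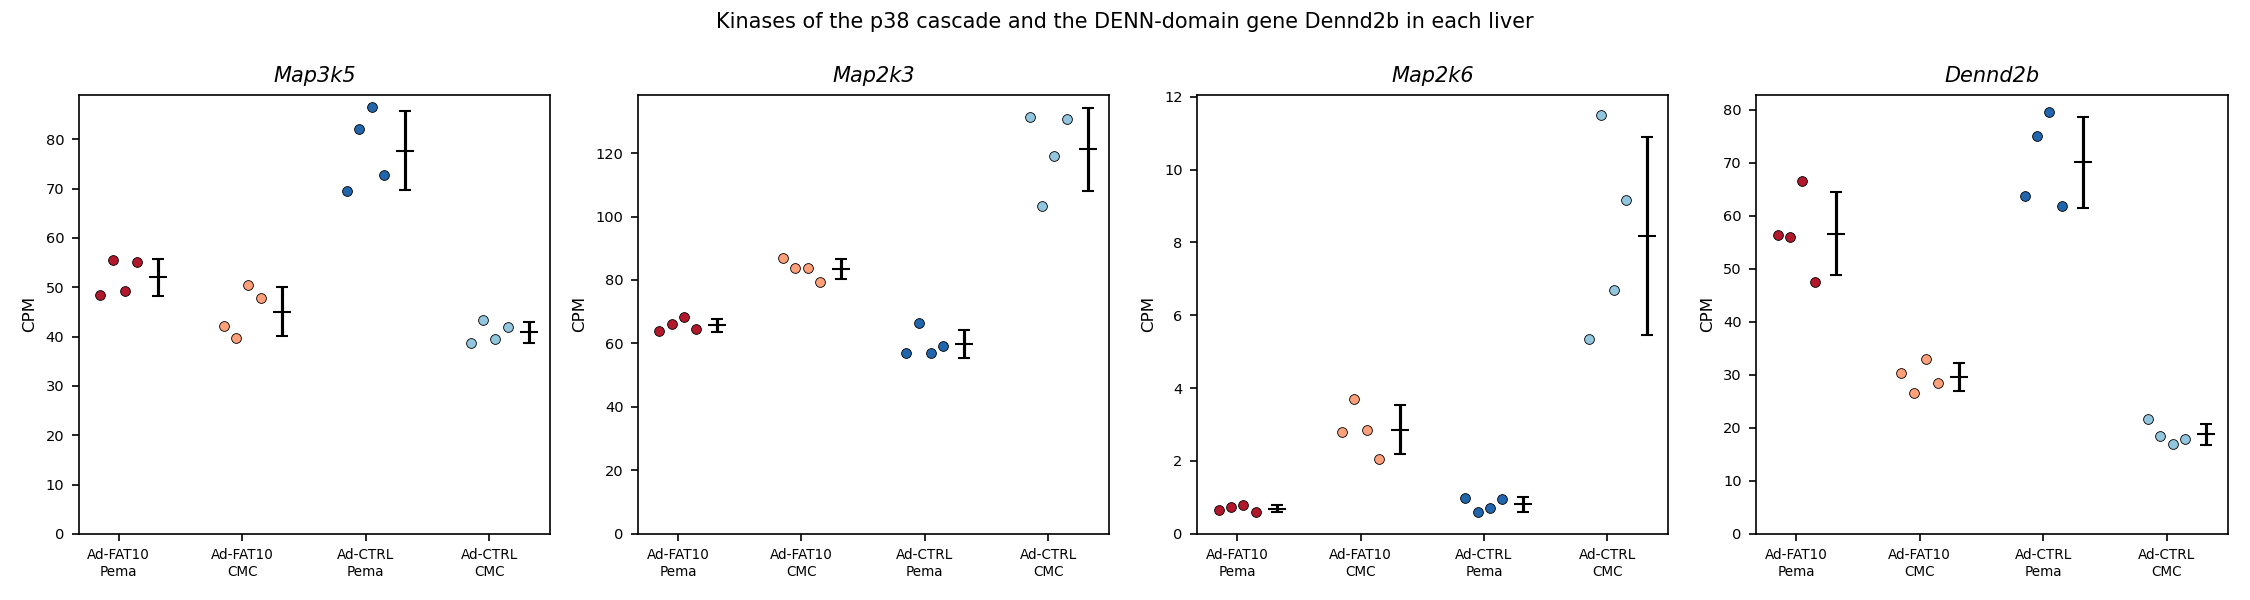
CPM of Map3k5, Map2k3, Map2k6 and Dennd2b in each of the 16 livers, on linear axes from 0, with the mean and SD of each group. Map3k5 is highest in Ad-CTRL Pema livers (69.4 to 86.6 CPM), Map2k3 and Map2k6 are highest in Ad-CTRL CMC livers, and Dennd2b is higher with Pema under both adenoviruses.

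**Figure D5:**
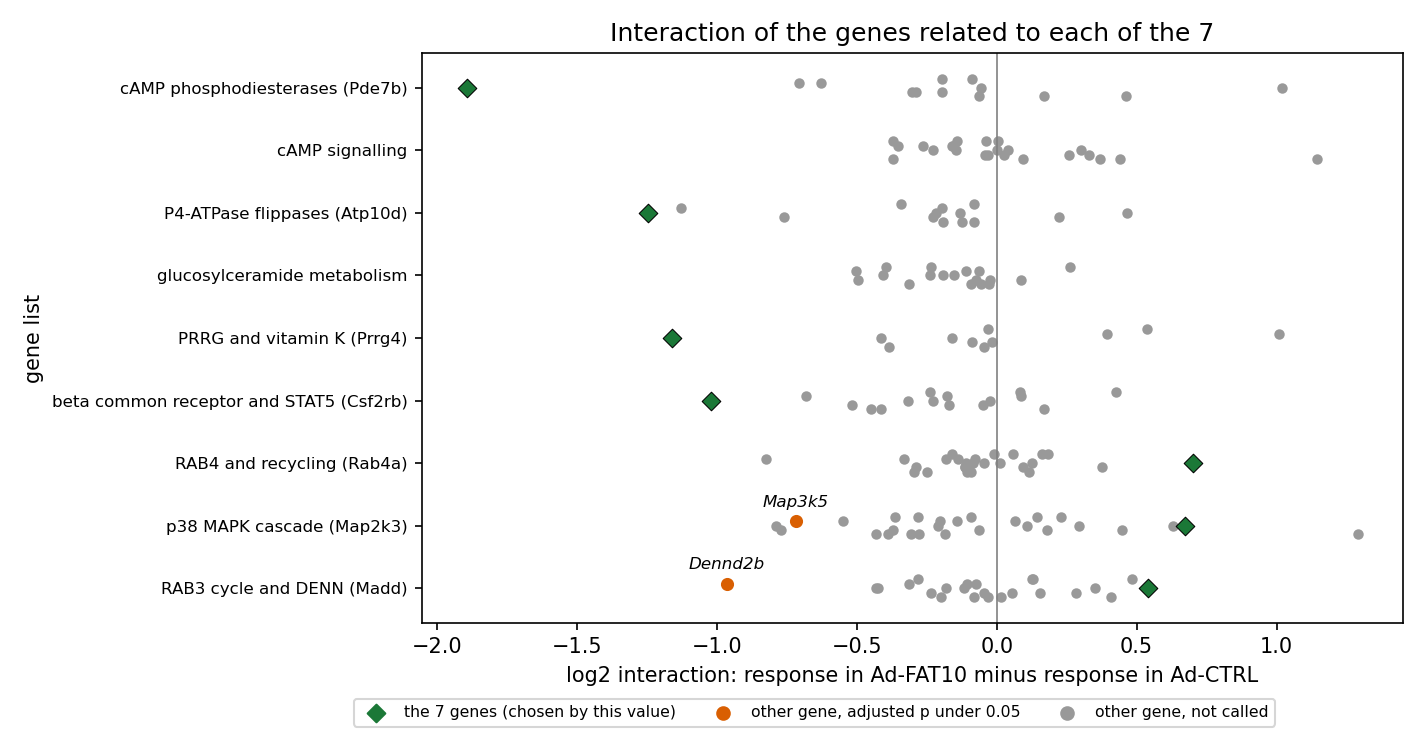
Log2 interaction (response in Ad-FAT10 minus response in Ad-CTRL livers) of every tested gene in the 9 lists of relatives, with the 7 genes as diamonds. Most relatives lie nearer to 0 than the gene they surround, which was chosen for this value, and 2 relatives, Map3k5 at -0.72 and Dennd2b at -0.97, were called.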

How the data were processed

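RNA from 16 mouse livers, 4 per group, was sequenced from poly(A)-selected, dUTP strand-marked libraries on DNBSEQ, per the labels' protocols. The authors deposited raw read counts per Ensembl gene, as they were counted, without normalization. GRCm39 is the build in the submitters' processing notes, which also list the tools STAR 2.7.6 and DESeq2, the last as 2.11.40.6 and as 1.36.0. How reads were counted, on which annotation and with which strand setting, is not given in the sources used here. Counts of overlapping genes and close paralogs are therefore uncertain. Sample titles gave the groups and replicate numbers. The labels name separate mice and no batch, and within-batch values could therefore not be had.

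Of 55416 identifiers 52083 (94.0%) matched a symbol in GENCODE M21. Totals of 18663498 to 28898229 counts put 3 counts, the limit a count of 0 allows, at 0.104 to 0.161 CPM, for counting error only. All 24 replicate pairs differed, with chi-square per gene from 14.5 to 119.0, so all libraries were kept.

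The analysis used edgeR 4.0.16 under R 4.3.3. The 14770 genes that filterByExpr kept were scaled by TMM and fitted by the quasi-likelihood method with 1 mean per group in 1 fit of 16 libraries (12 residual degrees of freedom, biological coefficient of variation 0.151). Adjusted p-values are Benjamini-Hochberg over all genes tested, called under 0.05. Standard errors are the log2 change divided by the square root of the F statistic and so restate the test. CPM values are TMM-scaled, and log2 CPM used a prior count of 2.

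The 7 genes, the lists of relatives and the marker lists were chosen with earlier results of these data known, so no list is independent evidence. Named besides the 7 genes were Ubd, Csf2rb2 and relatives called in the interaction. Up to 2 relatives per list with the smallest p for each average effect were named too. Also named were the 2 genes most correlated with each of the 7 and, beside Csf2rb, the myeloid markers S100a8, Csf3r and Csf1r. Pde7a was named after its values were seen. One gene that this rule names is not reported here. Alternatives were DESeq2 1.42.0 (size factors in the edgeR fit, and its own Wald test), no filter on low counts, limma 3.58.1 on log2(CPM + 1), leaving out each library and a replicate block. Protein sequences were not used here.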

Additional observations from a re-analysis of the deposited data

Results flagged for a closer look

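Map3k5 and Dennd2b were singled out because their pemafibrate responses differed between Ad-FAT10 and Ad-CTRL livers by the interaction term of the edgeR fit. They were named for that call, out of the lists of relatives of Map2k3 and Madd. The log2 interaction of Map3k5 was -0.719, with responses of 0.21 in Ad-FAT10 and 0.93 in Ad-CTRL livers. That of Dennd2b was -0.965, with responses of 0.94 in Ad-FAT10 and 1.90 in Ad-CTRL livers. No liver stood apart from the other 3 of its group by Dixon's test in any of the 28 sets of 4 values of the 7 genes, although chance alone would mark about 1 set in 20.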

How the results depend on the processing

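The number of genes called in the interaction, which was 23, depended on the processing. It was 93 with no filter on low counts, 115 with DESeq2's Wald test, 20 with DESeq2 size factors and 16 with the replicate block. Leaving out 1 library moved it between 11 and 36. It was 11 without Ad-CTRL Pema replicate 3 or 4, 36 without Ad-CTRL Pema replicate 1, 12 without Ad-FAT10 CMC replicate 3, 13 without Ad-FAT10 Pema replicate 4, 14 without Ad-FAT10 Pema replicate 2 or Ad-CTRL CMC replicate 3 or 4, and 15 without Ad-CTRL CMC replicate 1. Over the 16 such edgeR fits Pde7b and Atp10d stayed under an adjusted p of 0.05 in 16, and Prrg4 and Map2k3 in 8. Madd did in 4, Csf2rb in 3 and Rab4a in 2, so for Prrg4, Map2k3, Madd, Csf2rb and Rab4a the choice did not hold in every fit. Over these fits the interaction ran from 0.63 to 0.78 in Rab4a, 0.63 to 0.74 in Map2k3 and 0.50 to 0.58 in Madd. That of Csf2rb ran from -1.11 to -0.87. The signs held in every fit. The interaction of Prrg4 was -0.58 on log2(CPM + 1), and -1.38 to -1.06 with 1 library left out. The average Ad-FAT10 effect of Map2k3 was -0.18 (adjusted p 0.0625, edgeR) with no filter. No other call of the 7 genes on the average effects changed. The interaction call of Map3k5 was lost with the replicate block (adjusted p 0.0518, edgeR) and without any 1 of Ad-FAT10 Pema replicates 1, 2 and 4, Ad-FAT10 CMC 3 and 4, Ad-CTRL Pema 2, 3 and 4 and Ad-CTRL CMC 1, 3 and 4. The causes of these changes were not tested. Replicate numbers did not pair the mice, since 24 correlations of deviations between same-numbered libraries ran from -0.172 to 0.172, with 3 above 0.1 and 4 best with their own number. The block changed no call of the 7 genes on the average effects and left 3 of 7 under 0.05 in the interaction.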
